A study of Mus musculus with 12 samples.

Results

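The fibrillar collagens examined here were 8 genes, Col1a1, Col1a2, Col3a1, Col5a1, Col5a2, Col5a3, Col11a1 and Col27a1, picked by symbol from the 31053 genes in the count matrices. The choice was made with earlier results of these data known, so counts over these genes describe the list and do not test it. Their RNA was counted in single nuclei from the lungs of 12 wild-type C57BL/6J mice. Each mouse gave 1 library, and 4 groups of 3 mice were formed. Mice were 7 weeks old when bleomycin (1.2 U/kg), a drug that injures the lung and is used to model fibrosis, or PBS was placed in the trachea. From day 5 they were gavaged daily for 5 days with NVP-BHG712, an inhibitor of the receptor tyrosine kinase EphB4, or with its vehicle of polyethylene glycol 300 with N-methyl-2-pyrrolidone, and lungs were taken on day 14. The groups are PBS_vehicle, PBS_NVP, Bleo_vehicle and Bleo_NVP, and the question was how EphB4 inhibition alters the matrix genes of injured lung. All mice carried an intact Ephb4 gene, no transgene was used, and vehicle was given to both control groups. In the labels the PBS groups and Bleo_NVP carried run numbers 1, 2, 3 and 4 while Bleo_vehicle carried batch numbers 6 and 7, and Bleo_NVP was run 4 alone, so bleomycin, its inhibitor group and the run cannot be told apart.

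Fibrillar collagens are the rope-forming proteins of connective tissue: 3 chains wind into a triple helix, the ends of the procollagen are cut off outside the cell, and the trimmed molecules pack side by side into fibrils. Col1a1 and Col1a2 encode the chains of type I collagen, the bulk of the stiff fibrils of scar tissue, and Col3a1 encodes type III collagen, which forms finer fibrils beside type I in lung and vessel walls. The chains of type V (Col5a1, Col5a2, Col5a3) and type XI (Col11a1) start fibrils and limit their width, and Col27a1 encodes type XXVII collagen, best known from cartilage. In fibrotic lung these genes are regarded as products of fibroblasts and of the activated fibroblasts called myofibroblasts.

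The libraries held between 3556084 and 61947690 unique molecular identifiers (UMIs, each marking a captured RNA molecule). After filters 44611 nuclei remained, 9739 of them (21.8%) in 5 clusters named fibroblasts from their markers. The 13 fibroblast markers, Pdgfra and Tcf21 among them, summed to between 3129 and 9437 counts per 1000000 (CPM), the UMIs of a gene scaled to the total of its cell class in a library, in the fibroblasts of the 12 libraries and to between 345 and 881 CPM in alveolar type II nuclei. Bleo_vehicle libraries stood apart from the rest, since their nuclei held a median of 2.56%, 1.32% and 0.668% mitochondrial UMIs in replicates 1 to 3 against at most 0.0496% in any other library, and replicate 1 had the fewest UMIs per nucleus, a median of 925. A total of 272 barcode sequences occurred in more than 1 library, at most 26 of them in any pair of libraries. Labels number the replicates of a group, and the study describes 12 lungs with 3 per group. Within PBS_vehicle, PBS_NVP and Bleo_vehicle the run or batch number also differed between libraries. The spread reported here is thus between animals and, in those groups, also between runs or batches.

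All 8 members had UMIs in each of the 12 libraries. Col5a2 had the most, 37864 over the nuclei used, followed by Col3a1 with 25228, Col1a2 with 15851, Col27a1 with 7065, Col5a1 with 6065 and Col1a1 with 4737, while Col5a3 had 601 and Col11a1 had 204. On GRCm38 (mm10), Col3a1 (ENSMUSG00000026043) lies on chromosome 1 at chr1:45311538-45349706 on the plus strand, and Col5a2 (ENSMUSG00000026042) lies 24614 bases beyond its end at chr1:45374321-45503282 on the minus strand. The others lie on separate chromosomes: Col1a1 (ENSMUSG00000001506) at chr11:94936224-94953042, Col1a2 (ENSMUSG00000029661) at chr6:4504814-4541544, Col5a1 (ENSMUSG00000026837) at chr2:27886425-28039514, Col11a1 (ENSMUSG00000027966) at chr3:114030540-114220718 and Col27a1 (ENSMUSG00000045672) at chr4:63214004-63334991, all on the plus strand, and Col5a3 (ENSMUSG00000004098) at chr9:20770050-20815067 on the minus strand. No gene counted in the matrices overlapped a member.

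Promoter sequences of RefSeq on GRCm38.p6 matched 6 of the 8 members. The start used here is that of each RefSeq entry. For Col27a1 and Col1a2 it lies inside the gene span given above, so their windows lie within that span. The 150 bases before the start are shown for the member with the most UMIs per base of gene in fibroblasts (Col3a1), for the member that passed the test in fibroblasts (Col27a1) and for the member whose RNA was mostly outside them (Col11a1). Capitals mark TATAAA or TTTATA, the TATA box in its 2 orientations, and CCAAT or ATTGG, the CCAAT box.
Col3a1, chr1:45311388-45311537, plus strand: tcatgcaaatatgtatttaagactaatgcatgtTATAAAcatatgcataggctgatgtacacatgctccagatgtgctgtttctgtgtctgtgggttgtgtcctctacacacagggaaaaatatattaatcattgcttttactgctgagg
Col27a1, chr4:63215262-63215411, plus strand: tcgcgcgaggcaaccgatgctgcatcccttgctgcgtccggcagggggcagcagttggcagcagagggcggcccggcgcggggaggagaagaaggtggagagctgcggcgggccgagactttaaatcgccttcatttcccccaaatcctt
Col11a1, chr3:114030390-114030539, plus strand: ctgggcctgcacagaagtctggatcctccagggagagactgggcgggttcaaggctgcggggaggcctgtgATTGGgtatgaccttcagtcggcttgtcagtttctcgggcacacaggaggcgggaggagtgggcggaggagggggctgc
In the 250 bases before the start, searched on both strands, Col3a1 alone of the 6 held TATAAA or TTTATA, which 12.4% of 32851 promoters hold. CCAAT or ATTGG, present in 33.8% of promoters, occurred once each in Col1a2, Col5a3 and Col11a1. GGGCGG or CCGCCC, present in 32.7%, occurred in 5 of the 6 and not in Col3a1. These letter matches are a description of the windows and say nothing about binding.

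Type I collagen RNA was highest in fibroblasts and the contractile cells of vessels and airways, and type III collagen RNA in fibroblasts and mesothelial nuclei. Class levels are given as the median CPM over libraries with at least 20 nuclei of the class. Col1a1 stood at 75.0 in fibroblasts (range 44.9 to 230.6 over 12 libraries), 53.4 in smooth muscle (3 libraries) and 47.0 in pericytes, the cells that wrap capillaries (8 libraries). Col1a2 stood at 335 in fibroblasts, 221 in smooth muscle, 129 in pericytes and 115 in mesothelial nuclei, which line the lung surface. Fibroblasts exceeded smooth muscle for Col1a2 in 3 of 3 libraries, with ranges that did not overlap, whereas for Col1a1 the ranges of fibroblasts, smooth muscle and pericytes overlapped. Col3a1 stood at 550 in fibroblasts, 517 in mesothelial nuclei and 435 in smooth muscle, and fibroblasts exceeded mesothelial nuclei in only 3 of 8 libraries, so these classes did not differ beyond their spread.

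The type V chains were less alike. Col5a1 stood at 110 in fibroblasts, 97.9 in smooth muscle and 74.2 in pericytes, with overlapping ranges. Col5a2 was spread more widely: its median was 943 in smooth muscle, 734 in fibroblasts, 501 in arterial endothelium and 463 in mesothelial nuclei, and fibroblasts exceeded smooth muscle in 1 of 3 libraries. It also reached 85.4 in alveolar type I nuclei, the thin cells of the gas exchange surface. Col5a3 was scarce everywhere, with medians of 16.2 in pericytes, 10.6 in arterial endothelium, 9.17 in neuroendocrine nuclei and 6.90 in fibroblasts, none of which were separated by their ranges.

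Col11a1 RNA sat in another cell type altogether. Neuroendocrine nuclei, sensory epithelial cells of the airway, held 123 of its 204 UMIs (60.3%) in 115 nuclei, at 303, 101 and 95 CPM in the 3 libraries with enough of them, and no class overlapped that range. Fibroblasts held 25 of its UMIs, or 12.3%. Col27a1 returned to the fibroblast pattern, with 140 CPM in fibroblasts, 114 in pericytes and 82.0 in dendritic cells.

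**Figure D1:**
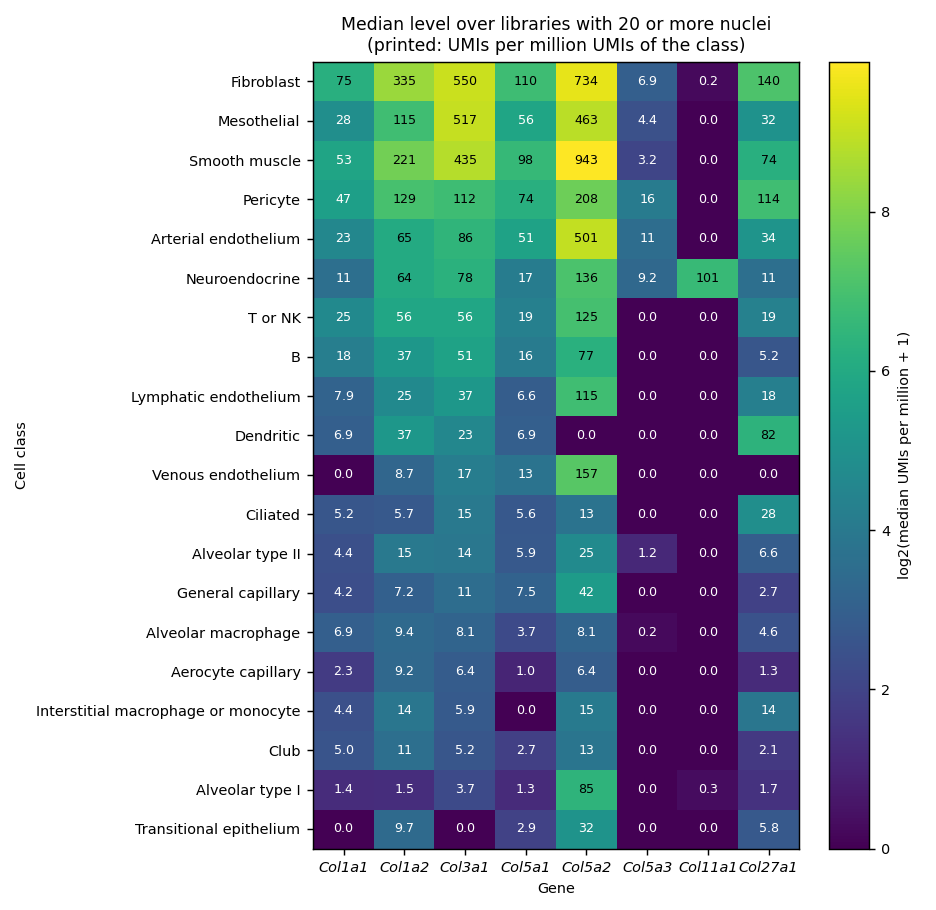
Level of each fibrillar collagen (columns) in each of 20 named cell classes (rows), printed as the median CPM over libraries and coloured by log2 of that median plus 1. Higher levels are lighter. Within their columns Col1a1, Col1a2, Col3a1, Col5a1 and Col27a1 are lightest in fibroblasts, Col5a2 in smooth muscle (943) and Col11a1 in neuroendocrine nuclei (101).

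Longer genes yield more UMIs from nuclei, so levels of different genes were set side by side per kilobase of gene. On that scale the fibroblast order was Col3a1 at 14.4 CPM per kilobase, Col1a2 at 9.12, Col5a2 at 5.69, Col1a1 at 4.46, Col27a1 at 1.15, Col5a1 at 0.721, Col5a3 at 0.153 and Col11a1 at 0.00103. Per kilobase of exon, Col5a2 led at 76.5, ahead of Col3a1 at 56.0 and Col1a2 at 26.9. Which of Col3a1 and Col5a2 ranked first therefore depended on the length used.

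Depth per nucleus was evened by drawing 1000 UMIs from each nucleus, which kept 8503 fibroblasts and left out 1236. Col5a2 was then seen in 42.4% of fibroblasts (67.2% before thinning), Col3a1 in 32.5% (57.1%), Col1a2 in 26.2% (53.6%), Col27a1 in 14.1% (35.1%), Col5a1 in 11.6% (31.4%) and Col1a1 in 8.21% (22.5%). Col5a3 was seen in 1.03% (95% Wilson interval 0.841% to 1.27%) and Col11a1 in 0.0353% (0.0120% to 0.104%). In T or NK cells, which do not make fibrillar collagen, the thinned shares over 369 nuclei were 6.23% for Col3a1, 6.78% for Col1a2, 5.69% for Col5a2, 2.98% for Col1a1, 2.17% for Col5a1 and 1.36% for Col27a1, and in alveolar type II nuclei they ran from 0.534% for Col5a1 to 2.36% for Col3a1. Median depth before thinning was 3146 UMIs in fibroblasts, 1313 in T or NK cells and 2360 in alveolar type II nuclei. Fibroblast shares lay above both backgrounds for the 6 members other than Col5a3 and Col11a1, while 26.3% of neuroendocrine nuclei (18.6% to 35.7%) held Col11a1 against 0 of 369 T or NK nuclei. These intervals cover counting error only, and nuclei of 1 mouse are not replicates.

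Fibroblasts contributed 81.2% of all Col3a1 UMIs, 80.4% of Col1a2, 78.7% of Col27a1, 78.4% of Col5a1, 73.6% of Col5a2, 69.1% of Col5a3 and 64.7% of Col1a1 over all libraries. In Bleo_vehicle that share was lower. For Col1a1 it averaged 47.5% ± 2.85 (SD, n = 3) in Bleo_vehicle, between 44.5% and 50.1%, against 85.6% ± 4.73 in PBS_vehicle, 82.8% ± 1.51 in PBS_NVP and 90.0% ± 4.19 in Bleo_NVP, and the Bleo_vehicle range overlapped none of the others. For Col1a2 it averaged 65.2% ± 6.94 against 90.4% ± 4.97, 89.7% ± 3.32 and 93.7% ± 2.22 in the same order, again without overlap, and for Col3a1 74.9% ± 5.09 against 89.1% ± 5.10, 88.6% ± 4.55 and 90.8% ± 3.94. Fibroblasts also gave fewer of all UMIs in Bleo_vehicle, 20.2% ± 1.94 against 28.8% ± 5.44 in PBS_vehicle, 28.2% ± 4.57 in PBS_NVP and 30.5% ± 1.09 in Bleo_NVP, and the part of this in the shares was not tested.

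**Figure D2:**
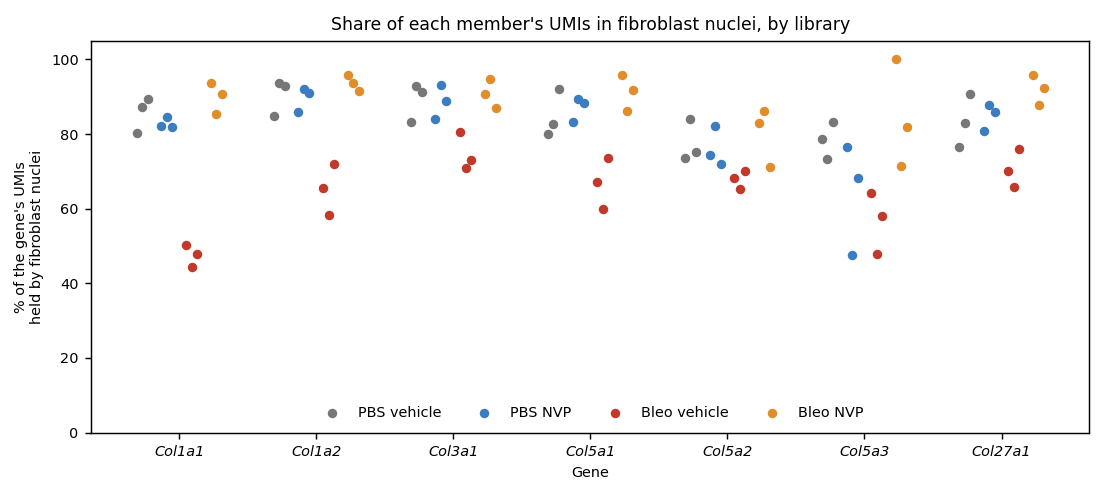
Percent of each member's UMIs that lay in fibroblasts, 1 point per library and replicates 1 to 3 from left to right within a group, for 7 members. In Bleo_vehicle the Col1a1 share lies between 44.5% and 50.1% and in the other groups between 80.3% and 93.8%.

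Across the 20 classes the members' profiles were most alike for Col1a1 and Col1a2, with Pearson's r of 0.948 on log2(CPM + 1). Next came Col3a1 and Col5a1 at 0.943, and Col1a2 with Col3a1 and with Col5a1, each at 0.936. The lowest value without Col11a1 was 0.444, between Col5a2 and Col27a1, and Col11a1 had values between -0.0257 and 0.408 with the others. Among 12019 genes, the profiles closest to Col1a1 were those of Ndrg2 (0.961), Ednra and Ism1, to Col1a2 Prdm6 (0.963), Pla2r1 and Tbx4, to Col3a1 Serping1 (0.980), Trabd2b and Prdm6, and to Col5a1 Tbx4 (0.942), Ddr2 and Sparcl1. Closest to Col5a2 were CT025619.1 (0.919), Fhl1 and Afap1l2, to Col5a3 Wasf3 (0.932), Ror2 and Pla2r1, and to Col27a1 Tnfrsf19 (0.886), Ism1 and Dkk3. These are descriptions over 20 classes whose nuclei came from the same 12 libraries.

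In fibroblasts Bleo_vehicle was compared with PBS_vehicle to ask what bleomycin did to collagen RNA without the inhibitor. UMIs were summed per library and tested with edgeR's quasi-likelihood test over 10485 genes, and a gene was called at a Benjamini-Hochberg adjusted p under 0.05. Of the 7 members tested (Col11a1 had too few UMIs), 1 was called, Col27a1, and 2 passed an unadjusted p under 0.05, Col27a1 and Col1a1. The background was 4.64% of genes called, and 1911 of the 10485 genes passed an unadjusted p under 0.05. All 7 fitted changes were above 0, where 50.1% of all genes were, and their median log2 change was 0.67 against 0.00 for all genes. Since the members were chosen with results of these data known, these counts describe the list and are no test of it.

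Col27a1 levels in PBS_vehicle replicates 1 to 3 were 115, 132 and 125 CPM in fibroblasts, and in Bleo_vehicle they were 238, 219 and 158. Each Bleo_vehicle library lay above each PBS_vehicle library, as did 11.9% of all genes tested. The log2 change was 0.69 ± 0.17 (SE) with an edgeR adjusted p of 0.0370, from a mean of 124 ± 8.52 (SD, n = 3) to 205 ± 41.6. Leaving out any library other than Bleo_vehicle replicate 3 ended this call. Over the 12 such fits the log2 change lay between 0.54 and 0.85 and the edgeR adjusted p between 0.00615 and 0.141. The level in Bleo_NVP replicates 1 to 3 was 148, 133 and 148.

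Type I collagen RNA was highest in 1 bleomycin mouse. Col1a1 stood at 90.8, 53.6 and 66.3 CPM in PBS_vehicle and at 230.6, 100.8 and 76.7 in Bleo_vehicle. Replicate 1 of Bleo_vehicle lay far above the rest and replicate 3 fell within the PBS_vehicle range. The log2 change was 0.88 ± 0.37 (edgeR adjusted p = 0.231), and it was 0.30 ± 0.26 without Bleo_vehicle replicate 1. Col1a2 stood at 340, 358 and 289 in PBS_vehicle and 520, 272 and 372 in Bleo_vehicle, with a log2 change of 0.20 ± 0.21 (edgeR adjusted p = 0.691) that became -0.07 without that library.

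Col3a1, the type III chain, overlapped between the groups. It stood at 583, 629 and 334 CPM in PBS_vehicle and at 794, 571 and 638 in Bleo_vehicle, and the log2 change was 0.35 ± 0.27 (edgeR adjusted p = 0.549). PBS_vehicle replicate 3 was the low one, and replicate 3 was also the lowest in PBS_NVP (326 against 545 and 554).

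The type V chains followed Bleo_vehicle replicate 1 as well. Col5a1 stood at 152, 89.5 and 91.2 in PBS_vehicle and at 310, 136 and 103 in Bleo_vehicle, and Col5a2 at 740, 737 and 597 against 1569, 735 and 783. Their log2 changes were 0.67 ± 0.32 and 0.55 ± 0.26 (edgeR adjusted p = 0.297 and 0.290), and 0.07 and 0.10 without replicate 1. Col5a3 stood at 15.1, 5.13 and 6.08 against 64.9, 7.57 and 6.22, with a log2 change of 1.2 ± 0.87 (edgeR adjusted p = 0.530), or -0.47 without that library. Bleo_vehicle replicate 1 had the highest level of all 12 libraries for each of the 8 members, and the smallest fibroblast sum, 832528 UMIs.

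No Col11a1 UMI was seen in PBS_vehicle fibroblasts. It had 4, 8 and 9 UMIs in the 3 Bleo_vehicle libraries and 0 in each PBS_vehicle library, so that the pooled level of 1.67 CPM was at least 4.96-fold higher than the group's floor of 3 counts (0.337 CPM), and the lower 95% counting limit of that ratio was 3.69. PBS_NVP held 2 UMIs and Bleo_NVP 2, and the ratio of Bleo_vehicle to Bleo_NVP was 4.05 with a 95% counting interval of 0.991 to 35.7. All Bleo_vehicle libraries lay above all PBS_vehicle libraries for this gene. It had too few UMIs for the test as run, and it was called when no filter on low counts was used.

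**Figure D3:**
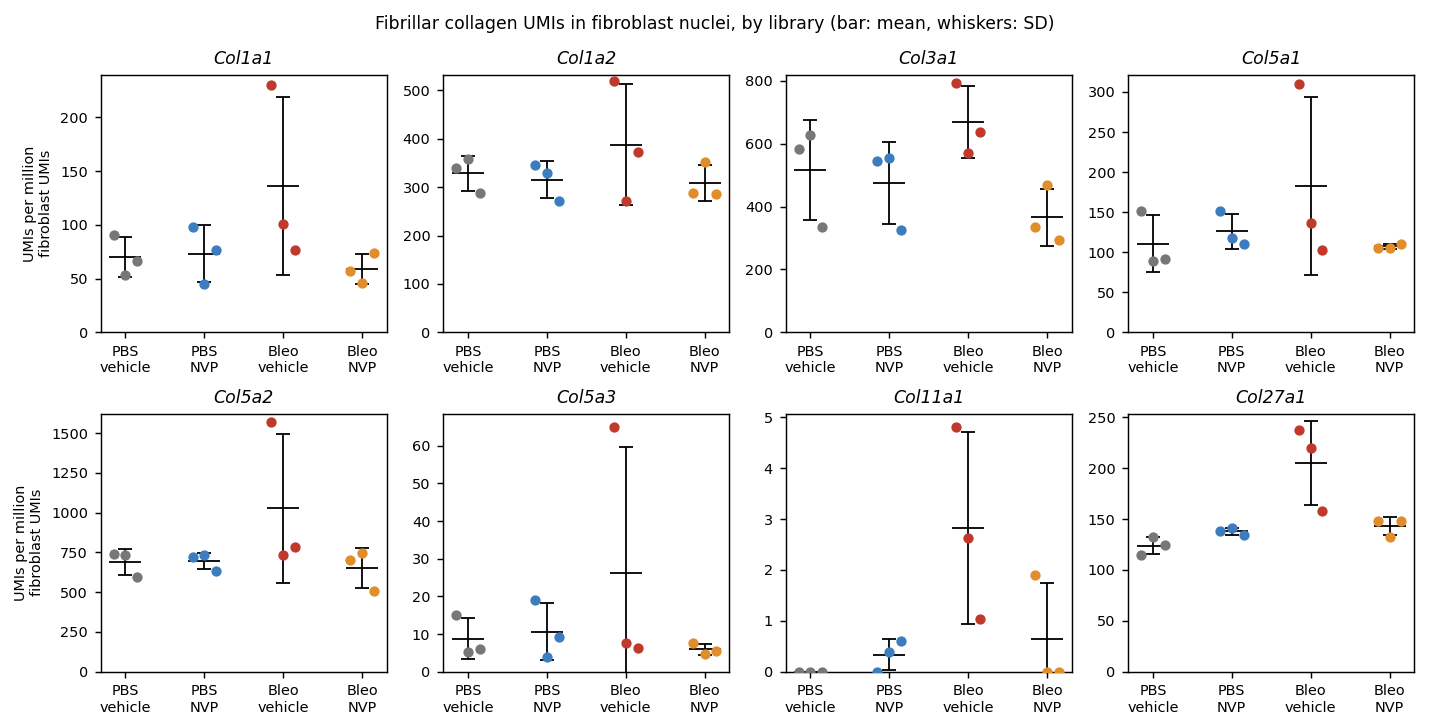
Level of each member in fibroblasts in CPM, 1 panel per gene and 1 point per library (replicates 1 to 3 from left to right), with bars at the group mean and whiskers of 1 SD. Bleo_vehicle replicate 1 is the highest of 12 libraries in all 8 panels (for Col1a1, 230.6), and only for Col27a1 and Col11a1 do all Bleo_vehicle points lie above all PBS_vehicle points.

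The effect of the inhibitor after bleomycin was read from Bleo_NVP against Bleo_vehicle, which shares the Bleo_vehicle libraries with the comparison above. None of the 7 members was called by edgeR and DESeq2 called 1 (Col1a1), against a background of 7.03% of genes called by edgeR. With the replicate number as a block, edgeR called Col1a1 and Col3a1. An unadjusted p under 0.05 was reached by 3 members (Col1a1, Col3a1 and Col27a1) and by 2368 of the 10485 genes. All 7 fitted changes were below 0, where 46% of genes were above 0, with a median of -0.64 against -0.05 for all genes. In 3 of the 8 members, Col1a1, Col3a1 and Col27a1, every Bleo_NVP library lay below every Bleo_vehicle library, as did 19.3% of genes tested.

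Col3a1 stood at 336, 468 and 294 CPM in Bleo_NVP against 794, 571 and 638 in Bleo_vehicle, with group means of 366 ± 91.0 and 668 ± 114 (SD, n = 3). The log2 change was -0.77 ± 0.27 with an edgeR adjusted p of 0.0982. Col1a1 stood at 57.1, 45.7 and 73.4 against 230.6, 100.8 and 76.7, and its log2 change of -1.07 ± 0.39 had an edgeR adjusted p of 0.117. The Col1a1 gap between the groups was narrow, since the highest Bleo_NVP and the lowest Bleo_vehicle library differed by only a few CPM. Col27a1 changed by -0.42 ± 0.18 (edgeR adjusted p = 0.168), from 205 ± 41.6 to 143 ± 9.08.

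Values for the remaining members overlapped between these groups. Col1a2 stood at 288, 352 and 286 in Bleo_NVP with a log2 change of -0.23 ± 0.21 (edgeR adjusted p = 0.576), which became 0.05 without Bleo_vehicle replicate 1. Col5a1 stood at 106, 106 and 111 (log2 change -0.64 ± 0.33, edgeR adjusted p = 0.272), Col5a2 at 699, 745 and 510 (-0.56 ± 0.26, edgeR adjusted p = 0.223) and Col5a3 at 7.61, 4.57 and 5.6 (-1.81 ± 0.98, edgeR adjusted p = 0.305). Without Bleo_vehicle replicate 1 those 3 changes were -0.05, -0.11 and -0.14, while Col3a1 kept -0.61 and Col1a1 -0.49.

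**Figure D4:**
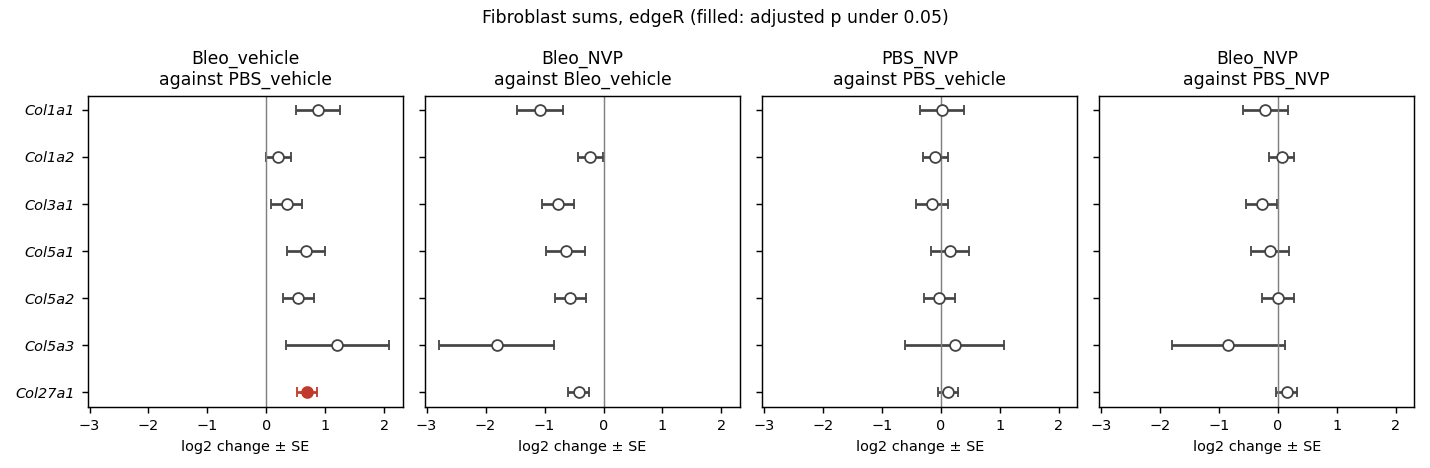
Fitted log2 change of the 7 tested members in fibroblasts in 4 contrasts, with whiskers of 1 SE and a filled symbol where the edgeR adjusted p is under 0.05. Only Col27a1 in Bleo_vehicle against PBS_vehicle (0.69) is filled, and all 7 members lie above 0 in that contrast and below 0 in Bleo_NVP against Bleo_vehicle.

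In uninjured lung no member was called with the inhibitor. PBS_NVP against PBS_vehicle gave 0 called members, 0 called genes of all tested (0%, with 49 genes at an unadjusted p under 0.05 and 0 by DESeq2) and log2 changes between -0.15 (Col3a1) and 0.24 (Col5a3), with a median of 0.02. Col27a1 was the 1 member whose groups did not overlap, at 138, 141 and 134 in PBS_NVP, beside a background of 2.25% of genes, and its log2 change of 0.12 ± 0.17 was not called. Bleo_NVP against PBS_NVP, which shares its libraries with both contrasts above, also gave 0 called members and 0 called genes (0%, 343 at an unadjusted p under 0.05 and 0 by DESeq2), with member changes between -0.84 (Col5a3) and 0.15 (Col27a1). The interaction, the inhibitor's effect under bleomycin minus that under PBS, called none of the 7, against 0.391% of genes. Of the 7, 1 (Col27a1) passed an unadjusted p under 0.05, as did 1440 of the 10485 genes. Interaction values ran from -2.05 for Col5a3 to -0.13 for Col1a2.

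Most ratios between chains overlapped between groups. The ratio of Col1a1 to Col1a2 UMIs in fibroblasts was 0.340 ± 0.122 (SD, n = 3) after bleomycin with vehicle and 0.195 ± 0.0634 with the inhibitor, against 0.215 ± 0.0602 in PBS_vehicle and 0.233 ± 0.0843 in PBS_NVP, with overlapping ranges. Col1a2 to Col3a1 was 0.572 ± 0.0899 in Bleo_vehicle and 0.861 ± 0.111 in Bleo_NVP, and here the ranges did not overlap, from 0.476 to 0.655 and from 0.751 to 0.973. PBS_vehicle (0.570 to 0.865) and PBS_NVP (0.595 to 0.834) overlapped both. Type V Col5a1 to Col5a2 lay between 0.160 and 0.181 in the means of the 4 groups. After thinning, 17.8% of Bleo_vehicle fibroblasts held UMIs of at least 3 members, against 13.8% in PBS_vehicle, 13.1% in PBS_NVP and 10.2% in Bleo_NVP.

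Markers of other states and cells moved with Bleo_vehicle in the same sums. The 14 measured markers of fibrotic fibroblasts summed to between 1195 and 6569 CPM in Bleo_vehicle fibroblasts and to between 629 and 903 in PBS_vehicle, with Lrrc15 at 0 in both. The 9 alveolar fibroblast markers summed to 4007 to 6279 against 7560 to 8692, and the 13 general fibroblast markers to 3129 to 5910 against 7471 to 9218. Of foreign markers, the 8 of alveolar type II cells summed to 303 to 1223 against 102 to 299, the 8 of club cells to 287 to 910 against 42.4 to 291, and the 11 of interstitial macrophages or monocytes to 76.8 to 408 against 33.3 to 59.0, with C1qb and Ms4a7 at 0 in PBS_vehicle. In the other direction, the 8 markers of general capillary endothelium summed to 1821 to 2240 against 2265 to 3310 and the 8 of mesothelium to 69.7 to 126 against 174 to 189. Of 26 lists for other cell types and states, 10 had every Bleo_vehicle sum above every PBS_vehicle sum and 2, the general capillary and mesothelial lists, below. Their part in the collagen values was not tested. Fewer activated cells and less RNA per activated cell cannot be told apart in such sums.

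Outside fibroblasts, fibrillar collagen RNA rose in 4 classes, alveolar macrophages, alveolar type I epithelium, general capillary endothelium and club cells. Of 23 pairs of a member and another class that could be tested, 9 were called higher in Bleo_vehicle than in PBS_vehicle by edgeR, none lower, and 22 of the 23 fitted changes were above 0. The background in these 11 classes was 2.31% of gene and class pairs called. Bleo_NVP was called lower than Bleo_vehicle in 6 of the pairs, none higher, against 2.95%, and 0 of 23 changes were above 0. The share of all gene and class pairs with a change above 0 is not given here. The sign counts therefore describe the member pairs only. None of the 3 members tested in club cells was called with the inhibitor, against 2.9% of genes. In PBS_NVP against PBS_vehicle and in Bleo_NVP against PBS_NVP no pair was called by edgeR or DESeq2, beside backgrounds of 0.00344% and 0%, and 1 and 0 of the 23 pairs passed an unadjusted p under 0.05.

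In alveolar macrophages, Col1a2, Col3a1 and Col5a2 rose. Col1a2 stood at 5.23, 0 and 4.41 CPM in PBS_vehicle and at 96.5, 46.3 and 25 in Bleo_vehicle, a log2 change of 3.83 ± 0.71 (edgeR adjusted p = 0.00370). Every Bleo_vehicle library lay above every PBS_vehicle library for these genes, as did 10.2% of all genes tested in this class, of which 5.93% were called. Col3a1 rose by 3.67 ± 0.71 and Col5a2 by 3.67 ± 0.67 (edgeR adjusted p = 0.00503 and 0.00327), although the Col5a2 call ended without PBS_vehicle replicate 1. In Bleo_NVP, Col3a1 stood at 20.3, 0 and 3.47 and was lower than in Bleo_vehicle by a log2 change of -3.60 ± 0.87 (edgeR adjusted p = 0.0267, beside 4.27% of genes called). Col5a2 had 186 UMIs in Bleo_vehicle macrophages and 3 in Bleo_NVP, a ratio of 12.2 relative to all UMIs with a 95% counting interval of 4.11 to 59.7 (edgeR adjusted p = 0.0103). Without Bleo_NVP replicate 2 both of these calls ended, and that of Col3a1 also without Bleo_NVP replicate 3 or Bleo_vehicle replicate 1 or 2. The 13 fibroblast markers summed to 221 to 371 CPM there in Bleo_vehicle, 46.2 to 137 in PBS_vehicle, 276 to 551 in PBS_NVP and 49.2 to 203 in Bleo_NVP, and 4 of the 7 tested were called higher in Bleo_vehicle than in PBS_vehicle (Abca8a, Bmper, Npnt and Pdgfra), while with the inhibitor none was called and 0 of the 7 had a change above 0. Lum was at 0 in PBS_vehicle. Their part in the result was not tested.

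In alveolar type I nuclei type I collagen RNA was higher in Bleo_vehicle, and the fibroblast marker sum was lower. Col1a2 had 8, 1 and 1 UMIs in PBS_vehicle and 21, 31 and 83 in Bleo_vehicle, or 1.56, 0.669 and 0.713 CPM against 19.4, 15.6 and 9.83, and 0.956, 1.40 and 1.23 in Bleo_NVP. Bleo_vehicle lay above every library of the other groups, as did 4.51% of genes tested in this class. Called genes made up 1.93% of this class after bleomycin and 3.88% with the inhibitor. The Col1a2 log2 change was 3.69 ± 0.52 after bleomycin and -3.52 ± 0.57 with the inhibitor (edgeR adjusted p = 0.00253 and 0.00544). Col1a1, at 1.17 to 1.43 in PBS_vehicle and 6.87 to 13.9 in Bleo_vehicle, changed by 2.99 ± 0.55 and -3.27 ± 0.62 (edgeR adjusted p = 0.0145 and 0.0133). The Col1a2 rise was called whichever library was left out and its change with the inhibitor was lost without Bleo_NVP replicate 3, whereas the Col1a1 calls were lost without PBS_vehicle replicate 1 or 2 after bleomycin and without any one Bleo_NVP library with the inhibitor. The fibroblast marker sum in these nuclei was 346 to 476 in Bleo_vehicle against 831 to 1020 in PBS_vehicle and 938 to 1008 in Bleo_NVP. After bleomycin 0 of 6 markers were called higher and 1 (Npnt) lower, and Npnt was called higher with the inhibitor. In fibroblasts themselves the sum was also lower in Bleo_vehicle, 3129 to 5910 against 7471 to 9218 in PBS_vehicle. The part of fibroblast RNA in the alveolar type I values was not tested. Col5a2, the fibrillar chain with the most UMIs in these nuclei, stood at 266 in Bleo_vehicle replicate 1 and between 64.2 and 144 in all other libraries, and was not called.

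General capillary endothelium held the remaining larger changes. Col1a2 stood at 8.0, 1.78 and 0 CPM in PBS_vehicle and at 102, 79.6 and 34.5 in Bleo_vehicle, a log2 change of 3.69 ± 0.64 (edgeR adjusted p = 0.00198) that was called whichever library was left out, beside 3.33% of genes. Col1a1 changed by 3.05 ± 0.71 and Col3a1 by 2.41 ± 0.49 (edgeR adjusted p = 0.0177 and 0.00716), and the Col1a1 call was lost without any one PBS_vehicle library or Bleo_vehicle replicate 1 or 2, that of Col3a1 without PBS_vehicle replicate 1 or Bleo_vehicle replicate 2. With the inhibitor Col1a2 changed by -3.29 ± 0.73 and Col3a1 by -2.58 ± 0.58 (edgeR adjusted p = 0.0128 and 0.0138), beside 4.14% of genes, and both were lost without Bleo_vehicle replicate 2 or without Bleo_NVP replicate 2 or 3, and Col3a1 also without Bleo_NVP replicate 1. Of 4 fibroblast markers tested there, 1 (Npnt) was called higher after bleomycin and lower with the inhibitor, and the 13 markers summed to 177 to 313 CPM in Bleo_vehicle, 101 to 181 in PBS_vehicle and 99.4 to 219 in Bleo_NVP. In club cells, Col3a1 stood at 7.40, 3.63 and 0 in PBS_vehicle and 26.9, 27.4 and 26.6 in Bleo_vehicle (log2 change 2.57 ± 0.69, edgeR adjusted p = 0.0433, beside 2.5% of genes), a call lost in 12 alternatives. None of 7 fibroblast markers tested in club cells was called by edgeR, 6 of the 7 had a change above 0 after bleomycin and 0 of the 7 with the inhibitor, and the marker sum was 271 to 490 CPM in Bleo_vehicle, 90.8 to 581 in PBS_vehicle and 79.8 to 139 in Bleo_NVP. The part of these markers in the general capillary and club values was not tested.

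In each Bleo_vehicle library the Col1a2 levels of alveolar macrophages, alveolar type I nuclei and general capillary endothelium lay below that of fibroblasts. Fibroblasts nonetheless held a smaller share of the Col1a1 and Col1a2 UMIs in that group than in any other, as given above. Over the pooled UMIs of the 16 classes outside the mesenchyme, the ratio of Col1a1 to Col1a2 UMIs was higher than in the fibroblasts of the same library in 12 of 12 libraries. It was 0.661 in Bleo_vehicle (1003 and 1518 UMIs) where the fibroblast libraries ranged from 0.206 to 0.443. It was 0.475 in PBS_vehicle (97 and 204 UMIs, fibroblasts 0.150 to 0.267) and 0.509 in PBS_NVP (146 and 287 UMIs, fibroblasts 0.136 to 0.283). In Bleo_NVP it was 0.328 (22 and 67 UMIs, fibroblasts 0.130 to 0.257). Col1a2 to Col3a1 was higher outside in 11 of 12 libraries. Single libraries could hold few UMIs outside, such as 4 of Col1a1 and 10 of Col1a2 in Bleo_NVP replicate 1, or 15 of Col1a2 and 8 of Col3a1 in PBS_vehicle replicate 3. RNA released from fibroblasts into other droplets was not modelled, and its part in these levels was not tested.

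Fibroblasts were divided further, without the members among the genes that made the subclusters. Subcluster 0 (3938 nuclei, led by Gsg1l, Slc7a10 and Colq) was the largest. Subcluster 1 (2196 nuclei) had low depth, a median of 1318 UMIs, and was led by mitochondrial and ribosomal RNA genes. Subcluster 2 (1465 nuclei) was led by Ppp1r3a, Itgb8 and Cdh22, subcluster 3 (890 nuclei) was fibrotic-like from 8 of 10 markers, with Tnc and Adam12, subcluster 4 (397 nuclei) was peribronchial-like and subcluster 5 (375 nuclei) adventitial-like, of the sheaths around vessels and airways.

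Smaller subclusters, numbered 6 to 13, held at most 168 nuclei each and are left out of the ranking. Subclusters 6, 7 and 8 were mixed, as they matched markers of general capillary, alveolar type II and alveolar type I cells in that order. Fibrillar collagen RNA was unevenly spread over subclusters 0 to 5. Among these, subcluster 5 had the highest median levels of Col1a1 (211 CPM), Col1a2 (723) and Col3a1 (1225), and exceeded subcluster 0 for each in 6 of 6 libraries, by median ratios of 3.8, 2.89 and 2.64. Its Col27a1 was the lowest, 41.8 CPM and below subcluster 0 in 6 of 6 libraries (ratio 0.326). Subcluster 2 exceeded subcluster 0 in 12 of 12 libraries for Col1a1 (ratio 2.54), Col1a2 (1.68), Col5a1 (1.54) and Col5a2 (1.91) and in 11 of 12 for Col3a1 (2.12), but in 5 of 12 for Col27a1 (0.967). Subcluster 3 exceeded it in 12 of 12 for Col3a1 (1.66) and Col5a2 (1.59) and had the highest median Col27a1 of subclusters 0 to 5, 179. Subcluster 4 had more Col5a1 than subcluster 0 in 9 of 9 libraries (2.14). Among these 6, the type I and III chains and Col27a1 had their highest median levels in different subclusters.

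Within subclusters 0 to 4, 1 pair of a member and a subcluster was called, Col3a1 in the fibrotic-like subcluster 3 in Bleo_NVP against Bleo_vehicle. Its level was 347, 451 and 475 CPM in Bleo_NVP and 1387, 947 and 735 in Bleo_vehicle, with 505, 754 and 507 in PBS_vehicle and 569, 805 and 481 in PBS_NVP. Bleo_NVP lay below every library of the 3 other groups, as did 0.851% of genes tested there. The log2 change was -1.31 ± 0.29 (edgeR adjusted p = 0.0150) beside 4.38% of genes called in that subcluster, and 2.74% over the 5 subclusters. It lost the call without Bleo_vehicle replicate 1 (-0.99) or without any one Bleo_NVP library (-1.19 to -1.39). Against PBS_vehicle, Bleo_vehicle had no pair called by edgeR (background 2.06%, and 4.02% in subcluster 3) and 1 called by DESeq2. Of 31 pairs, 14 passed an unadjusted p under 0.05 in edgeR. The share of all gene and subcluster pairs that did so is not given here, so this count only describes the members. Col3a1 in subcluster 3 changed by 0.86 ± 0.28 (edgeR adjusted p = 0.0978). Subcluster 3 made up 23.9%, 10.0% and 8.72% of Bleo_vehicle fibroblasts and a mean of 7.34% ± 1.43 in PBS_vehicle, and subcluster 0 only 7.22%, 29.4% and 43.3% against 46.7% ± 2.83. The mix of fibroblasts thus differed most in Bleo_vehicle replicate 1, the library with the highest collagen levels, and its part in those levels was not tested.

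**Figure D5:**
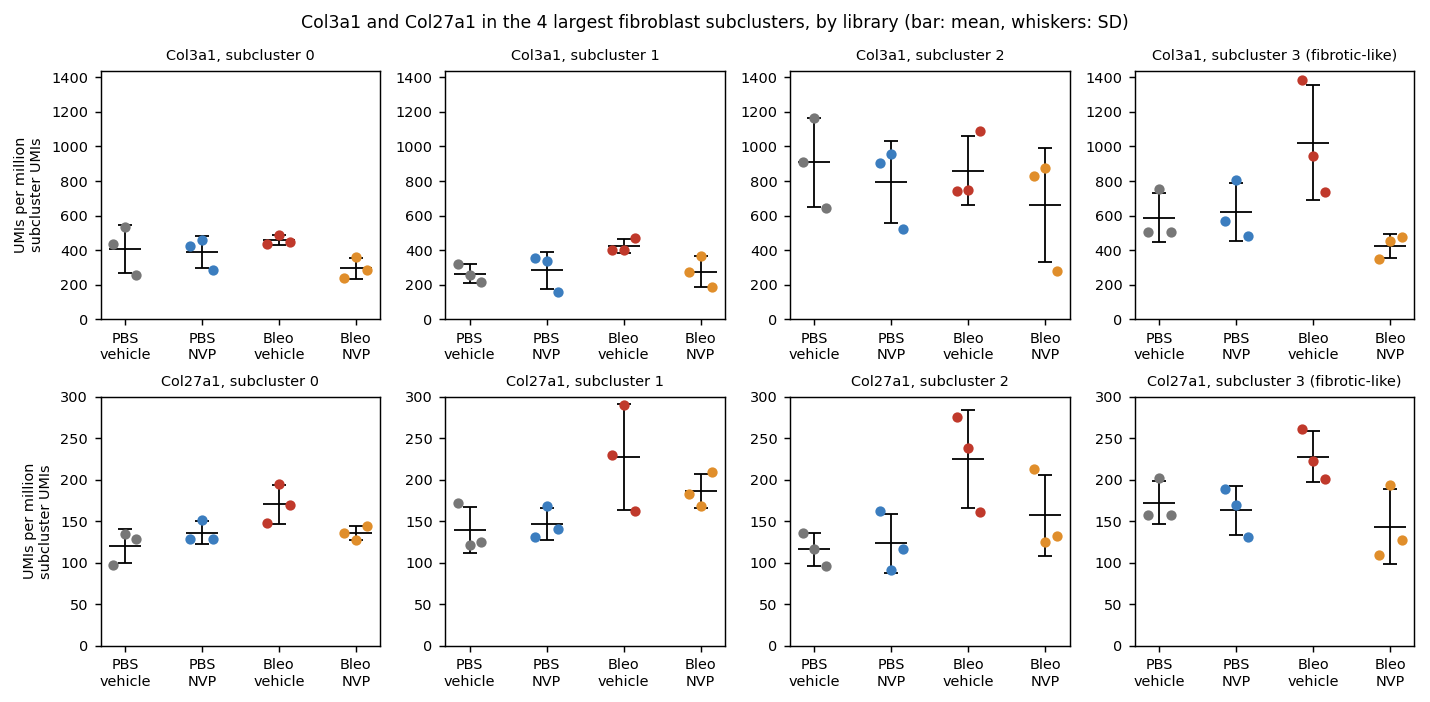
Level of Col3a1 and Col27a1 in fibroblast subclusters 0 to 3 in CPM of the subcluster, 1 point per library, by group. Col3a1 in subcluster 3 lies between 347 and 475 in Bleo_NVP and between 735 and 1387 in Bleo_vehicle.

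Genes that process, bind and degrade the fibrils were followed in the same fibroblast sums, against the backgrounds of 4.64% and 7.03% given above. No gene of any list was called in PBS_NVP against PBS_vehicle or Bleo_NVP against PBS_NVP. Among the other fibrillar chains only Col24a1 (type XXIV) had enough UMIs of 3 listed, and it rose from 4.27 ± 1.58 CPM in PBS_vehicle to 16.7 ± 2.71 in Bleo_vehicle (log2 change 1.92 ± 0.44, edgeR adjusted p = 0.0252). It was lower in Bleo_NVP, at 4.85 ± 2.41 (log2 change -1.61 ± 0.46, edgeR adjusted p = 0.0484).

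Few genes that fold and export procollagen were called. Of 18 genes of folding and hydroxylation none was called by edgeR after bleomycin (2 at an unadjusted p under 0.05, median log2 change -0.04), and with the inhibitor P4ha3, a subunit of prolyl 4-hydroxylase, was lower (-3.86) and Colgalt2, which adds galactose to collagen, higher (1.77). Of 12 export genes none was called by edgeR in either contrast (0 at an unadjusted p under 0.05 in both, medians 0.06 and -0.04). Of 7 tested genes of propeptide cleavage, Tll1 (2.68), a relative of the C-propeptide protease Bmp1, and Adamts14 (1.36), an N-propeptide protease, rose after bleomycin, and with the inhibitor Adamts14 fell by 1.51 on the log2 scale while Pcolce2, which enhances C-propeptide removal, was higher (1.2).

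Of 6 tested cross-linking genes, Loxl3, a lysyl oxidase, rose after bleomycin (2.24) and was lower with the inhibitor (-2.48), as was Lox (-1.03). Of 13 tested genes of the fibril surface, Col12a1, a collagen on the outside of fibrils, rose (1.88) and Tnxb, which spaces fibrils, fell (-1.51), and Tnxb was higher with the inhibitor (1.55). Of 7 receptors, Ddr2, a collagen-binding kinase, fell after bleomycin (-0.58) and was higher with the inhibitor (0.61), and Itga2, a collagen integrin, was lower (-3.38). Of 8 tested genes of fibril breakdown, Mmp2, a gelatinase, rose (0.96) and then fell with the inhibitor (-1.0), and Timp3, an inhibitor of such proteases, was higher with it (1.36). All of these values are log2 changes that edgeR called.

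Of 11 tested genes of activated fibroblasts, 6 were called higher after bleomycin and 6 lower with the inhibitor. The median log2 change over all 11 was 2.94 after bleomycin and -2.31 with the inhibitor. Spp1, encoding osteopontin, went from 0.326 ± 0.565 CPM in PBS_vehicle to 210 ± 226 in Bleo_vehicle and 0.732 ± 0.651 in Bleo_NVP. In the same sums the markers of interstitial macrophages or monocytes reached 76.8 to 408 CPM in Bleo_vehicle against 33.3 to 59.0 in PBS_vehicle. The part of such foreign RNA in the Spp1 values was not tested. Adam12 went from 10.7 ± 6.27 to 186 ± 230 and 11.1 ± 7.45, with log2 changes of 3.99 and -3.8. Wisp1 rose by 3.68 and Sfrp1 was lower with the inhibitor by -3.79, and Sfrp1 was the 1 gene of these lists called in the interaction (-4.40 ± 0.78, edgeR adjusted p = 0.0246). Of 15 tested TGF-beta response genes, Ltbp2 was called in both contrasts (3.16 and -3.11) and Tgfbr2 was lower with the inhibitor (-0.57). Of 22 tested nonmember collagens, 6 rose and 1 fell after bleomycin, led by Col7a1 (4.27) and Col28a1 (2.33). With the inhibitor 5 were lower and 1 higher, led by Col28a1 (-3.02) and Col4a3 (-2.27). Col4a3 was also a leading gene of fibroblast subcluster 8, which matched 8 of 8 alveolar type I markers. That subcluster averaged 1.91% of fibroblasts in Bleo_vehicle, 0.272% in PBS_vehicle and 0.630% in Bleo_NVP, and its part in the Col4a3 change was not tested.

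These list calls rested on few libraries. Over all lists 20 genes were called after bleomycin, of which 15 held without Bleo_vehicle replicate 1 and 3 held whichever library was left out (Ltbp2, Spp1 and Sfrp1). With the inhibitor 25 were called, of which 18 held without that replicate and 3 whichever was left out (Spp1, Sfrp1 and Col28a1). For activated fibroblast genes the count of rises was 2 without any one PBS_vehicle library, and for the nonmember collagens it was 0 without PBS_vehicle replicate 3.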

How the data were processed

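Nuclei from frozen lungs were dounced, sorted by DAPI and sequenced with 10x 3' v3.1 chemistry, 1 library per mouse. The authors aligned reads to mm10 and deposited, for each library, raw UMI counts per gene and barcode (Cell Ranger 7.0 in the submitters' processing notes, cellranger 7.2.0 in the file headers). The study's own Seurat, DecontX, DoubletFinder and Harmony results were not used here. Of 49163 barcodes, 47319 passed (200 to 6000 genes, at most 5% mitochondrial UMIs), and 2708 doublets (5.72%) were left out at 0.8% per 1000 nuclei.

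Clusters were built in Python 3.11.15 with scanpy 1.11.5 and leidenalg 0.10.2 (2000 variable genes without any Col gene, 30 components corrected for library, resolution 1; fibroblasts again with 20 components at 0.4) and named from markers, so class names are to be read as fibroblast-like and so on. Of 51 clusters, 1880 nuclei stayed unnamed. Sums per library with at least 20 nuclei were fitted in R 4.3.3 with edgeR 4.0.16 (filterByExpr, TMM, robust quasi-likelihood, two-sided, 12 libraries together, Benjamini-Hochberg over all genes tested). The study tested nuclei as replicates, which was replaced by these sums. SE is the log2 change divided by the root of F. Fibroblast sums ran from 832528 to 8682629 UMIs, with a biological coefficient of variation of 0.234. Coordinates came from GENCODE M21.

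Replicate numbers paired the PBS_vehicle with the PBS_NVP libraries, since deviations from the group means correlated between 0.381 and 0.647 for the 3 pairs with the same number and between -0.414 and -0.0691 for the others. Between Bleo_NVP and either PBS group 2 of 3 pairs with the same number correlated above 0.1, and between Bleo_vehicle and each other group 0 of 3 did. The fits are shown without a block, as only the PBS groups correlated in all 3 pairs with the same number. The block left PBS_NVP against PBS_vehicle at 0 called genes but raised other counts. Called fibroblast genes went from 487 to 943 after bleomycin, from 737 to 1338 with the inhibitor and from 41 to 314 in the interaction.

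Members and lists were chosen with earlier results of these data known. The 8 members are named whatever their values, and of each list at most 3 called genes per contrast, by absolute log2 change. The 3 most alike genes are named per member, except for Col11a1, for which they are not reported here. Other genes named in a marker list or as the 1 call of a group were named after their values were seen. Alternatives were DESeq2 1.42.0, RLE factors, no filter on low counts, a replicate block, stricter nuclei (500 UMIs, 1% mitochondrial), doublets kept, Col genes kept, no batch correction, the compared groups alone, a block of run number within PBS libraries, and leaving out each library. The statistical code was tested on simulated data.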

Additional observations from a re-analysis of the deposited data

Results flagged for a closer look

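In 2 pairs of a member and a class the inhibitor's effect under bleomycin differed from its effect under PBS by the interaction test of edgeR. They were 2 of 23 pairs tested, beside 0.546% of all gene and class pairs called in the interaction, 2.17% in alveolar macrophages and 0.18% in alveolar type I nuclei. Col5a2 in alveolar macrophages had an interaction of -5.32 ± 1.16 (SE) on the log2 scale, with an edgeR adjusted p of 0.0207. The 12 libraries held 5.71, 5.77 and 4.41 CPM in PBS_vehicle, 15.2, 13 and 3.10 in PBS_NVP, 92.6, 78.8 and 27.2 in Bleo_vehicle and 0, 0 and 10.4 in Bleo_NVP. The call was lost without PBS_vehicle replicate 1, PBS_NVP replicate 1 or Bleo_NVP replicate 2 and could not be tested without Bleo_vehicle replicate 1 or 2, and it rests on 3 UMIs in Bleo_NVP. The fits that could be made without 1 library gave values from -10.2, without Bleo_NVP replicate 3, to -4.48.

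Col1a2 in alveolar type I nuclei had an interaction of -4.83 ± 0.82, with an edgeR adjusted p of 0.0206. PBS_NVP stood at 3.63, 1.22 and 3.44 CPM and PBS_vehicle at 1.56, 0.669 and 0.713, while Bleo_vehicle stood at 19.4, 15.6 and 9.83 and Bleo_NVP at 0.956, 1.40 and 1.23. Leaving out 1 library gave values from -5.42 to -4.56 and lost the call in 8 of 12 such fits. Stricter nuclei (500 UMIs, 1% mitochondrial) also ended the call, with a value of -4.25 and an edgeR adjusted p of 0.0754.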

How the results depend on the processing

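The call of Col27a1 in fibroblasts after bleomycin ended under 14 of the 23 alternatives, among them stricter nuclei, the compared groups alone and no batch correction, which each left 0 members called where the main count was 1, while no filter on low counts gave 3 (Col11a1, Col1a1 and Col27a1) and leaving out 1 library gave 0 to 2. For Bleo_NVP against Bleo_vehicle in fibroblasts the count of 0 became 1 with DESeq2 (Col1a1), 3 with no filter (Col1a1, Col3a1 and Col5a3) and 0 to 3 without 1 library, the 3 being Col1a1, Col27a1 and Col5a1 without Bleo_vehicle replicate 3. The interaction count of 0 became 2 with no filter (Col1a1 and Col5a3), and its fit with the compared groups alone is the same fit. In the other classes the 9 pairs called after bleomycin became 24 with no filter, 4 with stricter nuclei and 4 to 20 without 1 library. The 6 called with the inhibitor became 26 with no filter, 2 with stricter nuclei and 1 to 17 without 1 library. In the subclusters the 0 pairs after bleomycin became 1 with DESeq2, 1 with no filter and 0 to 6 without 1 library, and the 1 pair with the inhibitor became 2 with DESeq2, 2 with RLE factors, 6 with no filter and 0 to 4 without 1 library. Without a filter, genes with a UMI in 1 group alone were tested, and otherwise the cause was not tested. Over all fibroblast genes, 487 were called after bleomycin and 737 with the inhibitor, against 761 and 1014 with DESeq2, 1307 and 1516 with no filter, 202 and 363 with stricter nuclei, and 156 and 412 with the compared groups alone. After bleomycin the count was 140 and 125 without PBS_vehicle replicates 2 and 3, and 197 and 987 without Bleo_vehicle replicates 2 and 3. With the inhibitor it was 302 and 1194 without Bleo_vehicle replicates 2 and 3, and 172, 343 and 169 without Bleo_NVP replicates 1, 2 and 3. The 41 genes called in the interaction became 235 with DESeq2, 712 with no filter, 27 with stricter nuclei, 66 with doublets kept and 15 to 274 without 1 library, and the 0 called in Bleo_NVP against PBS_NVP became 20 with no filter.

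Without Bleo_vehicle replicate 1 the sign turned for Col1a2 after bleomycin (-0.0705), for Col5a3 after bleomycin (-0.47) and for Col1a2 with the inhibitor (0.0484), none of which was called before or after. Without 1 library these 3 changes ran from -0.0705 to 0.40, from -0.47 to 1.81 and from -0.42 to 0.0484. PBS_NVP against PBS_vehicle and Bleo_NVP against PBS_NVP had 0 called members under every alternative run, in fibroblasts, other classes and subclusters. In the 12 tested classes, 6 of the 8 members had their highest level in fibroblasts, on either scale and with stricter nuclei. Removing the mixed subclusters, removing the low-UMI subcluster and fitting the 6 PBS libraries without a block were added after seeing the data and changed no count of members called in fibroblasts.

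Replicate numbers paired the PBS groups, and the block there left 0 genes called. In no other pair of groups did all 3 pairs with the same number correlate above 0.1, and between Bleo_vehicle and Bleo_NVP 0 of 3 did and 4 of 6 libraries correlated best with their own number. With the replicate number as a block, the members called in fibroblasts with the inhibitor were 2 (Col1a1 and Col3a1), the pairs in other classes with the inhibitor were 10, the pairs in subclusters were 5 after bleomycin and 6 with the inhibitor, and 943 and 1338 fibroblast genes were called, and 314 in the interaction. The block changed no other count of members in fibroblasts.

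Depth limits the rarer members. Col11a1 and Col5a3 had 25 and 415 UMIs in the fibroblasts of the 12 libraries.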
